A study of Homo sapiens with 8 samples.

Results

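hsa-miR-107 and hsa-miR-103a-3p are a pair of microRNAs of nearly the same sequence, each made from an intron of a pantothenate kinase (PANK) gene. They were taken by name from the count table, selected on their fold changes between the groups of this study, their ratio and their level, as 2 of its 342 microRNA rows and 2 of its 2962 small RNA features. Small RNA had been sequenced from HEK293, a human embryonic kidney cell line, in 8 OTTR-seq libraries, a method whose reverse transcriptase joins both adapters while copying the RNA. The scramble group (n = 4) had received a scrambled control mimic, and the tDR group (n = 4) a mimic of a small RNA derived from the 3′ part of tRNA-Asp-GTC (a tDR). Both groups shared the lipid reagent, the dose of 50 nM and the collection time of 48 h, and no untransfected cells were analysed here. Whether replicates came from separate cultures is not in the labels, so each SD and p covers a spread among libraries that may be technical.

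The libraries held 4016295 to 10246336 counts in the scramble group and 6910186 to 8007025 in the tDR group. Of these, 32276 to 97173 and 28455 to 47105 counts were microRNAs. That was 0.476, 0.649, 0.804 and 0.948% of the counts over scramble libraries 1 to 4, and 0.682, 0.536, 0.355 and 0.413% over tDR libraries 1 to 4, so the groups overlapped. The row scr2, unexplained in the labels, held 22444 to 58186 counts in the scramble libraries and 59 to 240 in the tDR libraries. The 4 microRNAs listed for HEK293 made up 11.8 to 14.5% of microRNA counts in the scramble group and 8.99 to 10.35% in the tDR group. Of 19 microRNAs listed for other cell types 10 were analysed here, and they summed to 0.913 to 1.14% and 1.20 to 1.33%. Most of that sum was miR-9-5p, listed for neurons, at 0.676 to 0.802% and 0.801 to 0.897%. The other neuron marker, miR-124-3p, reached at most 6 counts in a library. Also present were miR-194-5p of kidney tubule epithelium (0.113 to 0.181% and 0.0959 to 0.161%) and miR-126-3p of endothelium (0.0494 to 0.0837% and 0.0787 to 0.160%). miR-122-5p of liver and miR-451a of red blood cells were not analysed here, and miR-223-3p of white blood cells reached at most 10 counts in a library. Neither sum overlapped between the groups. The HEK293 markers differed in direction: miR-92a-3p, which makes up most of their sum, was lower in the tDR group (10.8 to 13.4% and 7.84 to 8.98%), and miR-10a-5p was higher (0.409 to 0.537% and 0.615 to 0.745%). The other two overlapped, miR-10b-5p at 0.175 to 0.238% and 0.217 to 0.332% and miR-196a-5p at 0.261 to 0.383% and 0.275 to 0.309%. The part of these markers in the results below was not tested.

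A microRNA is cut from a hairpin in a longer transcript, loaded into an Argonaute protein and guided to messenger RNAs mainly by its seed, bases 2 to 8 from its 5′ end. PANK genes encode the enzymes of the first step of coenzyme A synthesis, and their intronic microRNAs have been studied as regulators of insulin sensitivity and as repressors of DICER1, which itself cuts microRNA hairpins. miR-107 has also been described as a repressor of ARNT, a partner of the hypoxia-inducible factors.

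The mature sequences (RefSeq, GRCh38.p14) are shown because the counting had to tell them apart by a single base. Capitals mark the seed and the base that differs, G22C from miR-103a-3p to miR-107, with positions counted from 1 at the 5′ end.
hsa-miR-103a-3p: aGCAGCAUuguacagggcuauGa
hsa-miR-107: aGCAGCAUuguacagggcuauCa
Both are 23 bases long, so a read that ends before base 22 is the same for both. How such reads were assigned was not stated. The rows miR-365a-3p and miR-365b-3p, which have the same sequence, carried equal counts in all 8 libraries. The seed GCAGCAU was found in these 2 members alone among the 310 microRNAs of the table with a RefSeq sequence.

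The hairpins are shown with the 3′ arm, the mature microRNA, in capitals, because miR-103a-3p comes from a pair of loci whose mature products cannot be told apart.
MIR103A1: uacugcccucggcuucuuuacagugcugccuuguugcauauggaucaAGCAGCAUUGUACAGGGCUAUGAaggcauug
MIR103A2: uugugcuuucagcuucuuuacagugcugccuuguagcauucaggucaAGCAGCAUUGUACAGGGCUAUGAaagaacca
MIR107: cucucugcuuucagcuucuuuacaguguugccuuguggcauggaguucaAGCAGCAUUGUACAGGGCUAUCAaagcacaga
MIR103A1 lies at chr5:168560896-168560973 on the minus strand in PANK3, MIR103A2 at chr20:3917494-3917571 on the plus strand in PANK2, and MIR107 at chr10:89592747-89592827 on the minus strand in PANK1 (GRCh38, GENCODE release 29). Each sits on the strand of its host in intron 5 of the transcripts with 7 exons, and MIR107 in intron 4 of a PANK1 transcript with 6. The hairpins begin 419, 443 and 369 bases after the exon before them, in introns of 2235, 1620 and 4419 bases.

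In control cells miR-103a-3p was among the abundant microRNAs and miR-107 was not. miR-103a-3p had counts of 1103, 1476, 719 and 2162 over scramble libraries 1 to 4, which was 2.81, 2.23, 2.23 and 2.22% of microRNA counts and rank 7, 8, 9 and 9 of 342. miR-107 gave 95, 141, 58 and 197 counts, or 0.242, 0.213, 0.180 and 0.203% of microRNA counts, at ranks 53, 56, 60 and 58. In scramble 1, the library with the widest intervals of the scramble group on this scale, the exact 95% binomial intervals were 2.65 to 2.98% for miR-103a-3p and 0.196 to 0.296% for miR-107, and they cover counting error only. By mean share miR-103a-3p (2.37% ± 0.293, SD, n = 4) stood 8th between miR-26a-5p (2.58% ± 0.195) and miR-20a-5p (2.20% ± 0.123), a member of the miR-17-92 cluster. These neighbours did not differ from it beyond their spread, as miR-26a-5p was above miR-103a-3p in 3 of 4 libraries and miR-20a-5p in 2. miR-107 (0.209% ± 0.026) stood 56th between miR-532-3p (0.213% ± 0.0246) and miR-10b-5p (0.207% ± 0.0266), each above it in 2 of 4 libraries.

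Both members were lower in the tDR libraries than in the scramble libraries, on each scale given here. Levels are first given as CPM, counts per 1000000 counts of the library, with TMM scaling over all features. In scramble libraries 1 to 4 miR-103a-3p stood at 140, 139.9, 161 and 188 CPM, and in tDR libraries 1 to 4 at 105, 95.0, 86.5 and 75.8 CPM. The groups did not overlap, and the highest tDR library, tDR 1, reached 75.1% of the lowest scramble library. miR-107 stood at 12.1, 13.4, 13.0 and 17.1 CPM in the scramble libraries and at 6.27, 8.88, 3.48 and 5.16 CPM in the tDR libraries. These groups did not overlap either, with tDR 2 the highest and tDR 3 the lowest of the tDR group. Of the 196 tested microRNAs 10.2% had every tDR library below every scramble library in this way. The log2 fold changes were -0.80 (SE 0.16) for miR-103a-3p and -1.24 (SE 0.25) for miR-107. The pair was chosen with this contrast known, so its values are a description and no test is given.

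**Figure D1:**
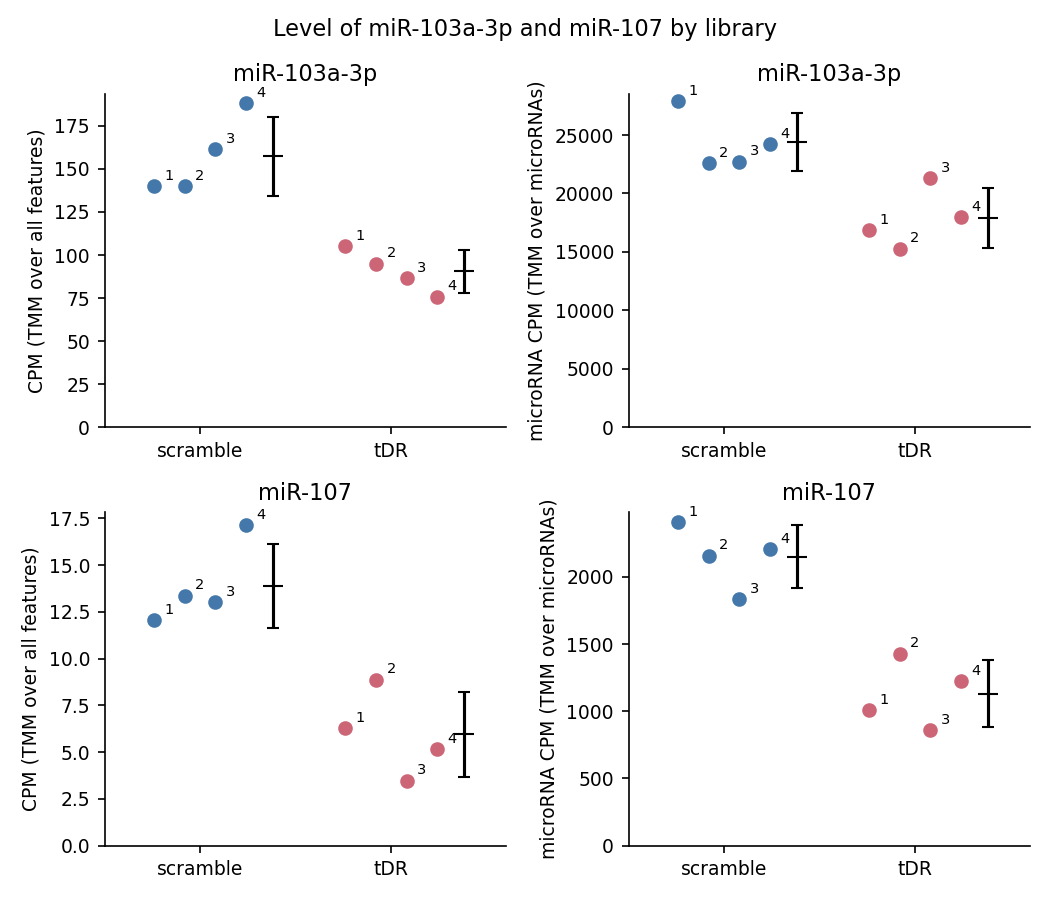
Level of miR-103a-3p (upper panels) and miR-107 (lower panels) in each library, as CPM with TMM scaling over all features (left) and as microRNA CPM with TMM scaling over microRNAs (right). Points are libraries with their replicate number and black bars are means with SD (n = 4); in each panel all tDR points lie below all scramble points, most narrowly for miR-103a-3p on the microRNA scale.

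Scaled to microRNAs alone, the difference was smaller for both members. On this scale, which gives counts per 1000000 microRNA counts with TMM factors of microRNAs, miR-103a-3p stood at 27920, 22589, 22725 and 24237 over scramble libraries 1 to 4 and at 16869, 15285, 21340 and 17962 over tDR libraries 1 to 4. tDR 3 came to 94.5% of the lowest scramble library, so the groups were apart by little. miR-107 stood at 2405, 2158, 1833 and 2208 against 1006, 1428, 858 and 1224, and its highest tDR library came to 77.9% of the lowest scramble library. Of the tested microRNAs 7.65% were without overlap and lower on this scale. The log2 fold changes were -0.45 (SE 0.21) and -0.93 (SE 0.23). As a plain share of microRNA counts, miR-103a-3p gave 1.64, 1.50, 2.19 and 1.85% in tDR libraries 1 to 4, where it ranked 10 to 12, and miR-107 gave 0.0977, 0.140, 0.0879 and 0.126%, where it ranked 74 to 110. The tDR 3 value of miR-103a-3p, 2.19% (exact 95% binomial interval 2.02 to 2.36%), was not separable by counting error from the lowest scramble value of 2.22% (2.13 to 2.32%). On plain shares 7.14% of the tested microRNAs had no overlap and were lower.

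MicroRNAs as a class stood lower in the tDR group on the whole-library scale. The median log2 fold change was -0.33 over the 196 tested microRNAs and 0.02 over all 1761 tested features, and under scaling on microRNAs these medians were 0.0047 and 0.36. Relative to the microRNA median miR-103a-3p was at -0.46 and miR-107 at -0.90 on the first scale, and at -0.45 and -0.93 on the second. From the lowest fold change upward miR-107 was 5th and miR-103a-3p 21st of the 196 microRNAs on the first scale, and 5th and 23rd on the second. Without tDR libraries 3 and 4, which had the smallest microRNA shares, the log2 fold changes over all features were -0.65 for miR-103a-3p and -0.89 for miR-107, with a microRNA median of -0.082. What part the microRNA share of a library has in these values was not tested. In lysed cells a smaller share of the library and fewer molecules per cell cannot be told apart.

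**Figure D2:**
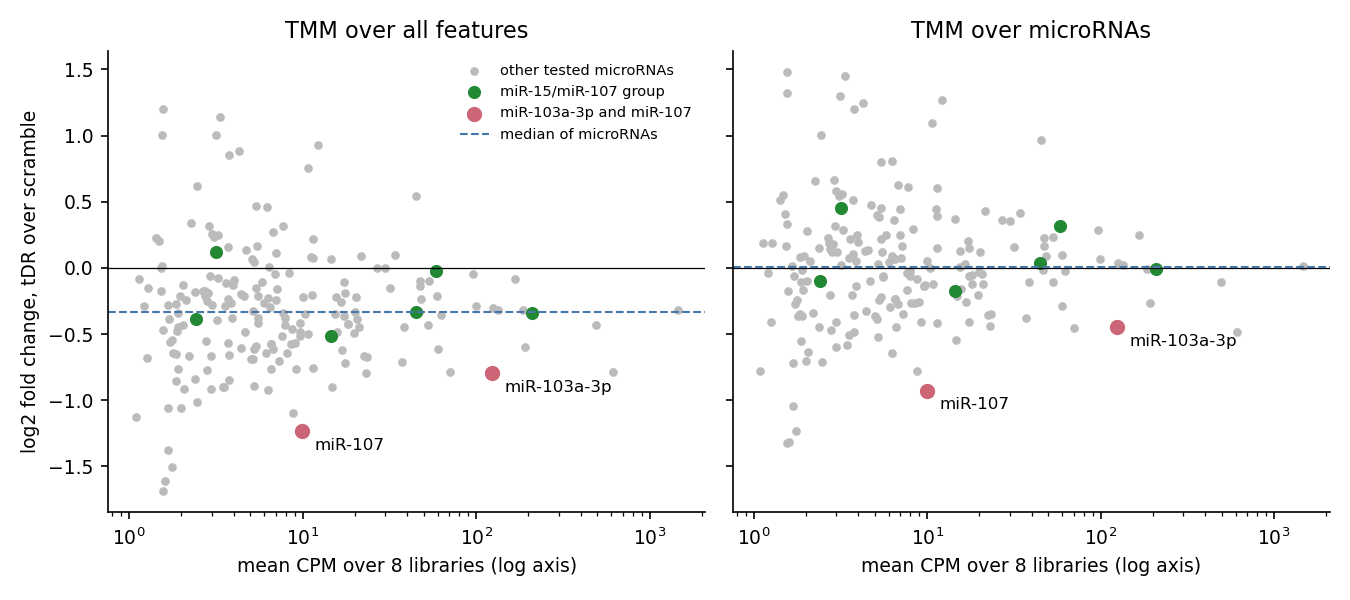
Log2 fold change of tDR over scramble against mean CPM over the 8 libraries (log axis) for the 196 tested microRNAs, with TMM over all features (left) and over microRNAs (right). The dashed line is the microRNA median, -0.33 on the left and 0.0047 on the right; miR-103a-3p and miR-107 lie below it in both panels.

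The ratio of the pair needs no scaling, since both rows come from the same library. miR-107 made up 7.93, 8.72, 7.47 and 8.35% of the summed counts of both in scramble libraries 1 to 4, so that miR-103a-3p was 10.5 to 12.4 times as frequent. The shares in tDR libraries 1 to 4 were 5.63, 8.55, 3.86 and 6.38%, with miR-103a-3p 10.7 to 24.9 times as frequent. The groups overlapped, because tDR 2 lay within the scramble range. tDR 3 had the lowest share, from 25 counts of miR-107, with an exact 95% interval of 2.52 to 5.65%. That interval covers counting error only, and tDR 3 is named because it was the lowest. The group means were 8.12% ± 0.541 and 6.11% ± 1.94 (SD, n = 4 each). On the log2 scale the mean ratio was -3.50 ± 0.102 in the scramble group and -3.98 ± 0.498 in the tDR group, a difference of -0.49 (SE 0.25). Without tDR 3 the difference was -0.28, without tDR 3 and tDR 4 it was -0.23, and without tDR 2 it was -0.68. The coefficient of variation of the share was 6.67% among scramble libraries and 31.8% among tDR libraries. Counting error alone is 7.13 to 13.1% of a miR-107 count in the scramble libraries and 13.2 to 20.0% in the tDR libraries.

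**Figure D3:**
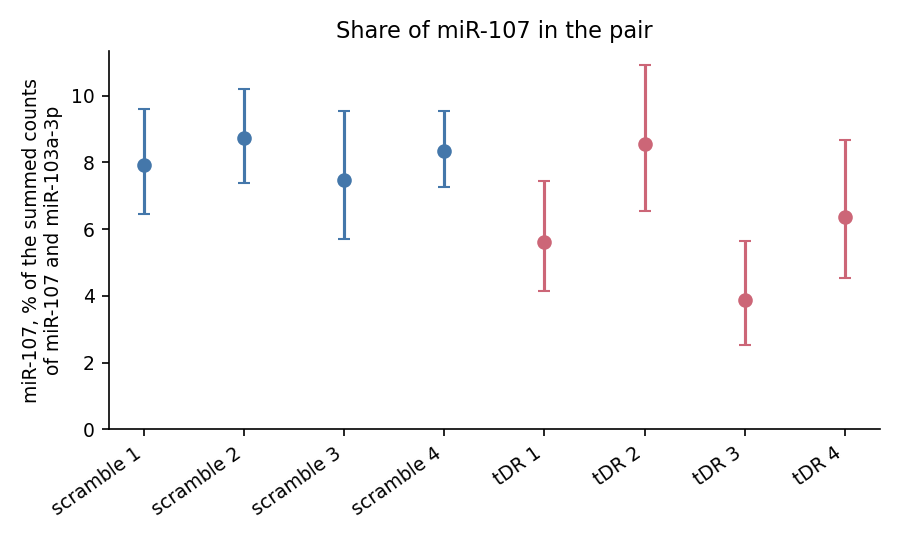
Share of miR-107 in the summed counts of miR-107 and miR-103a-3p (percent), by library, with exact 95% binomial intervals as bars. The scramble libraries lie between 7.47 and 8.72%, and the tDR libraries are spread from 3.86 to 8.55%.

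The passenger arms of the miR-103a hairpins, the strands cut from the other side, were rare. They are shown because they tell the 2 loci apart, by the base in capitals (G1A from the first to the second). This is their first base, so a read that starts after it is the same for both. The MIR107 hairpin holds a stretch close to miR-103a-2-5p, and how such reads were assigned was not stated.
hsa-miR-103a-1-5p: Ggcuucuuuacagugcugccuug
hsa-miR-103a-2-5p: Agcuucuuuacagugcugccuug
The arm of the PANK2 locus, miR-103a-2-5p, had counts of 5, 13, 11 and 24 over scramble libraries 1 to 4 and of 8, 8, 13 and 7 over tDR libraries 1 to 4. Its share of microRNA counts was 0.0228% ± 0.00898 and 0.0265% ± 0.0131 (SD, n = 4 each), and the groups overlapped. The arm of the PANK3 locus, miR-103a-1-5p, gave 0, 3, 1 and 1 counts and 4, 1, 6 and 2 counts. The 0 in scramble 1 allows a share of up to 0.00765% of its microRNA counts (3 counts). Neither arm passed the filter on low counts, so at this depth the loci were not compared.

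The wider family of the pair is the miR-15/miR-107 group, whose members share the letters AGCAGC near the 5′ end and include the cell cycle regulators miR-15 and miR-16. The motif AGCAGC, searched in bases 1 to 8 on the mature strand, was held by 9 of 310 microRNAs of the table with a RefSeq sequence (2.90%), namely the members and 7 others. In those others it starts at base 2 and not at base 1, as the capitals show for the most abundant ones.
hsa-miR-15b-5p: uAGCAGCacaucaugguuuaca
hsa-miR-16-5p: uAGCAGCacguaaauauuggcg
hsa-miR-424-5p: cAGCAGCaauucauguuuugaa
hsa-miR-15a-5p: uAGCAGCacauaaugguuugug
Of 9 listed relatives 7 were analysed here and 6 passed the filter on low counts. The quasi-likelihood test of edgeR, Benjamini-Hochberg adjusted over all tested features, called 0 of the 6, and 0 had an unadjusted p below 0.05. It called 6.7% of all tested features and 4.59% of the tested microRNAs, and 30.1% of the tested microRNAs had an unadjusted p below 0.05. DESeq2 and limma-voom also called 0 of the 6, with 1 unadjusted p below 0.05 each. Of the 1761 tested features DESeq2 called 163 and limma-voom 121. In edgeR 3 of the 6 had an unadjusted p below 0.05 with total counts, 2 with DESeq2 size factors and 0 with TMM on microRNAs. The part of all microRNAs with such a p was not counted under these scalings, nor for DESeq2 and limma-voom. The median log2 fold change of the 6 was -0.34, near the microRNA median, and 0.012 under scaling on microRNAs.

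miR-15b-5p, the most abundant of them, stood at 234 ± 37.5 CPM in the scramble group and 185 ± 50.4 in the tDR group (SD, n = 4 each), and its log2 fold change was -0.34 (SE 0.19; adjusted p = 0.316 by edgeR). miR-15a-5p stood at 17.1 ± 4.57 and 12.01 ± 4.18 CPM, and its log2 fold change was -0.51 (SE 0.25; adjusted p = 0.238 by edgeR). miR-424-5p was at -0.34 (SE 0.17; adjusted p = 0.256 by edgeR). In each of these the CPM of the groups overlapped. miR-16-5p stood at 59.0 ± 14.6 and 57.9 ± 13.0 CPM, and its log2 fold change was -0.024 (SE 0.19; adjusted p = 0.957 by edgeR). Its CPM overlapped between the groups (38.7 to 73.4 and 44.1 to 71.4). As a share of microRNA counts it was 0.751 to 1.01% in the scramble group and 1.05 to 1.26% in the tDR group. These shares were without overlap and in the other direction from the pair. The part of tested microRNAs without overlap and higher was not counted. The miR-16-5p fold change of 0.32 (SE 0.19) under scaling on microRNAs was not called either (adjusted p = 0.304 by edgeR). On that scale edgeR called 3.06% of the tested microRNAs. miR-195-5p and miR-503-5p, with at most 49 counts in a library, were at 0.12 (SE 0.33) and -0.39 (SE 0.41). miR-497-5p, with 1 to 16 counts, was not tested. Whether the members differ from these relatives was not tested.

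**Figure D4:**
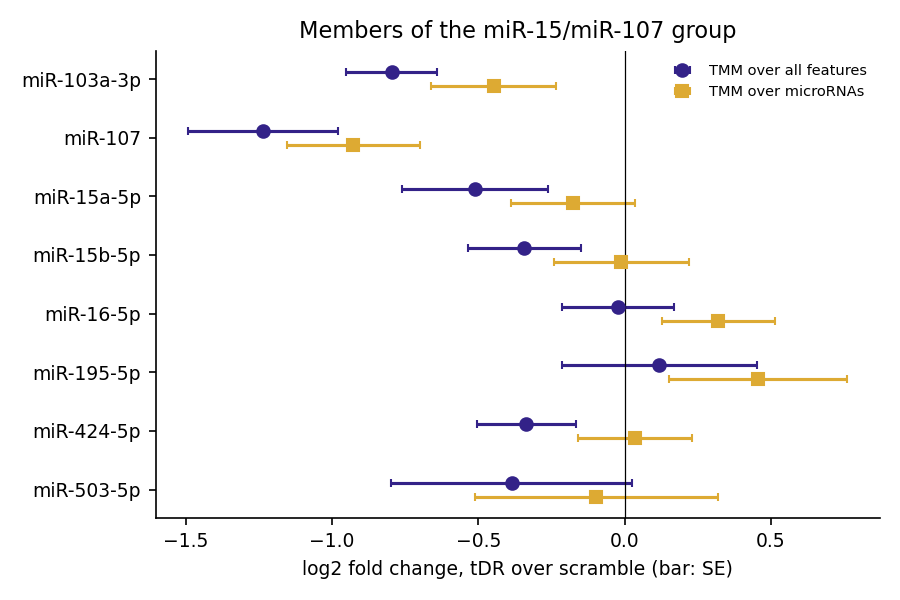
Log2 fold change of tDR over scramble with its SE for miR-103a-3p, miR-107 and the 6 tested relatives, with TMM over all features (circles) and over microRNAs (squares). The members are at -0.80 and -1.24 on the first scale, and the relatives run from -0.51 to 0.12.

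The microRNAs that followed each member most closely over the 8 libraries were not its paralog. Likeness was measured as the SD over libraries of the log2 ratio to the member, among 92 other microRNAs with a mean count of at least 50, so that a low value means a steady ratio. For miR-103a-3p the closest were miR-24-3p (SD 0.156), miR-101-3p (0.174) and let-7g-5p (0.207), and miR-107 came 57th (0.422). For miR-107 the closest were miR-92a-3p of the miR-17-92 cluster (0.306), miR-532-3p (0.350) and miR-128-3p (0.356), and miR-103a-3p came 8th (0.422). Counting error adds to the SD of rare microRNAs such as miR-107, which had 25 to 197 counts. The measure uses all 8 libraries and so includes the difference between the groups.

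Other pairs of close sequence show how much such ratios moved in these libraries. Among tested microRNAs with a RefSeq sequence, 29 pairs had the same seed and 1 or 2 substitutions, 14 of them with 1, and several share a let-7 member. The log2 ratio of the rarer to the commoner member changed between the group means by -1.18 to 0.59, with a median size of 0.189, and was lower in the tDR group in 19 pairs and higher in 10. Over all pairs the change of -0.49 for miR-107 over miR-103a-3p was 7th in size. It was the largest of the 14 with 1 substitution, ahead of miR-1260a over miR-1260b (-0.34, SE 0.45) and miR-196a-5p over miR-196b-5p (-0.28, SE 0.085). The pair of miR-107 and miR-103a-3p was chosen with its ratio known, so its place in this order is a description only. Without tDR 3 its change was -0.28, and the other pairs were not computed without that library. The largest of all was miR-98-5p over let-7c-5p (-1.18, SE 0.51), from means of 15.1 and 41.9 counts, and the smallest was let-7i-5p over let-7g-5p (0.00048, SE 0.23). The groups did not overlap in 3 of the 29 pairs (10.3%), and the pair of miR-107 and miR-103a-3p was not one of them. Those 3 were miR-98-5p over let-7a-5p, let-7g-5p over let-7a-5p and let-7g-5p over let-7f-5p, which share members and so are not independent. The pair of abundant members miR-19a-3p and miR-19b-3p, with means of 3932 and 11685 counts, changed by -0.13 (SE 0.039). The SD of this log2 ratio within the scramble group had a median of 0.246 over pairs, against 0.102 for miR-107 over miR-103a-3p. Within the tDR group the median was 0.342, against 0.498 for miR-107 over miR-103a-3p. The pairs were not matched for counts, so counting error differs among these SDs. The mean count of the rarer member ran from 11.9 for miR-10396a-3p to 3932 for miR-19a-3p, and was 82 for miR-107.

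**Figure D5:**
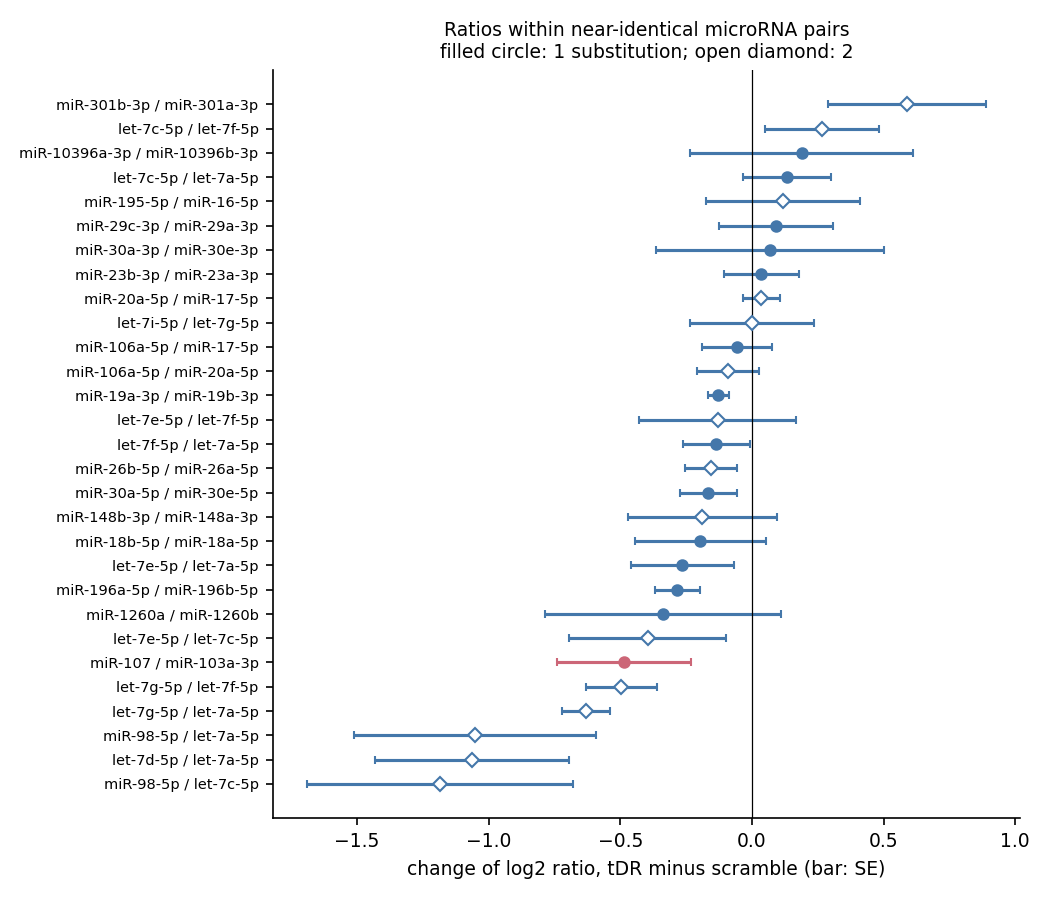
Change of the log2 ratio between the members of 29 near-identical microRNA pairs, tDR minus scramble group mean, with SE. Filled circles are pairs with 1 substitution and open diamonds pairs with 2; miR-107 over miR-103a-3p (-0.49) is drawn in red.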

How the data were processed

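The authors deposited whole-number read counts per small RNA feature and a table of normalized signal, which equals those counts divided by a factor per library (separate for tRNA rows); the sources used here do not say how the factors were made. Per the submitters' processing notes the build was hg38; the aligner, and how reads were counted, are not stated. The 2 rows scr and scr2 name no gene (0.000749 to 0.565% of counts) and were left out. Over 2962 features edgeR 4.0.16 (R 4.3.3) was run with filterByExpr, TMM and a robust quasi-likelihood fit without covariates, at an adjusted p below 0.05, and tested on simulated data. An SE was taken as the size of the log2 change over the root of F. Ratios used a prior count of 0.5. Alternatives used DESeq2 1.42.0 and limma 3.58.1; tables used Python 3.11.15. No replicate pair was a copy (chi-square per degree of freedom of at least 13.2 over 12 pairs). Named microRNAs are the members, their passenger arms, the listed miR-15/miR-107 group, the 3 closest by likeness, rank neighbours and near-identical pairs. The members and lists were chosen with earlier results of these data known. Intervals are exact 95% binomial.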

Additional observations from a re-analysis of the deposited data

Results flagged for a closer look

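Of 34 groups of 4 libraries examined for a library apart from the rest, 2 gave one, and chance gives about 1 in 20. The share of miR-103a-3p in microRNA counts was 2.81% in scramble 1 against 2.22 to 2.23% in the other 3 scramble libraries. miR-503-5p stood at 1.14 CPM in scramble 2 against 3.13 to 3.43 CPM in the others, from 12 counts.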

How the results depend on the processing

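miR-103a-3p and miR-107 were lower in the tDR group under all 19 alternatives, including 1 added after seeing the data, without tDR libraries 3 and 4. The miR-103a-3p log2 fold change of -0.797 moved to -0.448 with TMM on microRNAs alone and to -0.406 with total microRNA counts, scalings that centre microRNAs near 0, and ran from -0.884 to -0.717 with 1 library left out. That of miR-107 ran from -1.48 to -1.05 with 1 library left out, and was -0.889 with total microRNA counts. The ratio difference ran from -0.676 to -0.276 with 1 library left out and was -0.234 without tDR libraries 3 and 4. With the replicate block the fold changes were -0.795 and -1.26, and edgeR called 39 features in place of 118, and 0 relatives. The mean ratio difference within same-numbered libraries, -0.485, equals the difference of the group means by arithmetic. By replicate number 1 to 4 it was -0.52, -0.025, -0.99 and -0.40 (SD 0.397). Same-numbered libraries did not deviate together (correlations of -0.345 to -0.12), and no library correlated best with its own number. These correlations cannot tell whether same-numbered libraries shared a culture. The call count of the relatives was 0 in all alternatives. Calls over all features ran from 39 of 1761 with the replicate block to 185 of 1761 with limma on the deposited normalized values. With 1 library left out, up to 3 relatives had an unadjusted p below 0.05 in edgeR. Among the relatives these fold changes turned sign: miR-15b-5p from -0.343 to 0.0288 with total microRNA counts; miR-424-5p from -0.336 to 0.0363 with TMM on microRNAs and 0.0822 with total microRNA counts; miR-16-5p from -0.0237 to 0.319 and 0.359 with these scalings, 0.0306 with the deposited normalized values, 0.226 without tDR libraries 3 and 4 and -0.182 to 0.089 with 1 library left out; miR-195-5p from 0.118 to -0.0206 with total counts and -0.113 to 0.335 with 1 library left out.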
